A study of Fragaria vesca with 9 samples.

Results

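The genes described here are those of woodland strawberry, *Fragaria vesca*, whose level in axillary buds was graded across 3 genotypes, with FT3OE between H4 and RdV. They numbered 319 of the 34006 genes in the deposited table, or 1.88% of the 16968 genes with a mean of at least 1 CPM (counts scaled to a common library total). RdV is an ecotype label and its libraries are titled RdV-UB4. FT3OE has the ecotype and genotype labels Hawaii-4, its libraries are titled FT3-UB4, and the design text names the genotype FT3OE, read here as overexpression of FT3. H4 has the ecotype and genotype labels Hawaii-4 and its libraries are titled H4-US4. Each genotype had 3 RNA-seq libraries of undifferentiated buds from node 4 of untreated plants with 4 leaves, grown in days of 16 h at 22 °C and nights of 8 h at 18 °C. The labels and design text do not state the promoter that drives FT3, the number of independent lines, the number of plants in a library or the meaning of US4 and UB4. H4 alone carries US4, so genotype and that code cannot be told apart in any comparison with H4. Nothing in the labels says that replicates came from separate plants, and p-values and errors then measure only the spread between these libraries.

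An axillary bud forms where a leaf joins the stem, and in strawberry it can grow into a runner, which makes daughter plants, or into a branch crown, a shoot that can end in an inflorescence. FT proteins are mobile signals made in leaves that act in shoot tips, where they promote flowering in many plants, together with FD-type transcription factors. TFL1 proteins belong to the same family and oppose them. The series asks how bud fate and outgrowth into branch crowns are set. Graded genes are those in which FT3OE buds lay between the buds of the 2 ecotypes. No member has a name or function here: the deposited tables give identifiers without names, and 0 of the 34006 identifiers matched the gene table used. No marker genes could therefore be used to check the tissue label.

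Members were chosen by their measured values in all 9 libraries. Group means were taken of log2(CPM + 0.5). A member had a mean of at least 1 CPM, FT3OE between H4 and RdV, both steps (FT3OE minus H4, and RdV minus FT3OE) of at least 0.5 on the log2 scale, which is 1.41-fold, and no overlap between the library values of any 2 genotypes. A stretch of linkage group 4, from FvH4_4g29310 to FvH4_4g29630, was left out by the rule, and 2 genes in it met the other criteria. A further 18 genes met all but the minimum of 1 CPM, and 88 met all but the criterion on overlap. Because the rule used every library, the steps below are descriptions and carry no test.

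In all, 236 members (74.0%) were rising, lowest in H4 and highest in RdV, and 83 were falling, highest in H4 and lowest in RdV. Among rising members the median step was 0.80 (25th to 75th percentile 0.64 to 1.14) for RdV minus FT3OE and 0.82 (0.64 to 1.04) for FT3OE minus H4. Among falling members the median step was −0.86 (−1.28 to −0.65) for RdV minus FT3OE and −0.79 (−1.08 to −0.59) for FT3OE minus H4. Buds are mixed tissue, and fewer cells of a type and less RNA per cell cannot be told apart in these values. From end to end the median fold of RdV over H4 was 3.21 in rising members and 0.301 in falling ones. Over all genes of at least 1 CPM the median log2 difference was −0.03 for RdV minus FT3OE, 0.10 for FT3OE minus H4 and 0.06 for RdV minus H4. Both steps reached 2-fold in 34 rising and 11 falling members.

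FT3OE was the genotype most often in the middle. The same rule with RdV in the middle gave 63 genes, and with H4 in the middle 42. With no minimum step, genes whose 3 genotypes did not overlap numbered 1868 with FT3OE in the middle, 469 with RdV and 376 with H4, so that FT3OE held 68.9% of the orders. At steps of at least 0.5 it held 75.2%, and at steps of at least 1 it held 77.6%, or 45 genes against 9 and 4. With the stretch of linkage group 4 counted, the genes without overlap were 11% of the 16968 genes for FT3OE in the middle, 2.77% for RdV and 2.22% for H4.

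Members were also counted among the genes called by edgeR, whose quasi-likelihood test was adjusted by Benjamini and Hochberg's method over 18587 genes and held to 0.05. All 319 members passed the low-count filter. RdV and FT3OE differed in 295 members, where 22.2% of all tested genes were called. RdV was higher than FT3OE in 219 rising members (11.1% of tested genes called higher) and lower in 76 falling members (11.1% called lower). FT3OE and H4 differed in 283 members, where 31.7% of tested genes were called. FT3OE was higher than H4 in 204 rising members (16.7% of tested genes called higher) and lower in 79 falling members (14.9% called lower). RdV and H4 differed in all 319 members, where 48.1% of tested genes were called, with 24.4% called higher in RdV and 23.6% lower. The rule used these contrasts, and nothing is read from the counts.

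**Figure D1:**
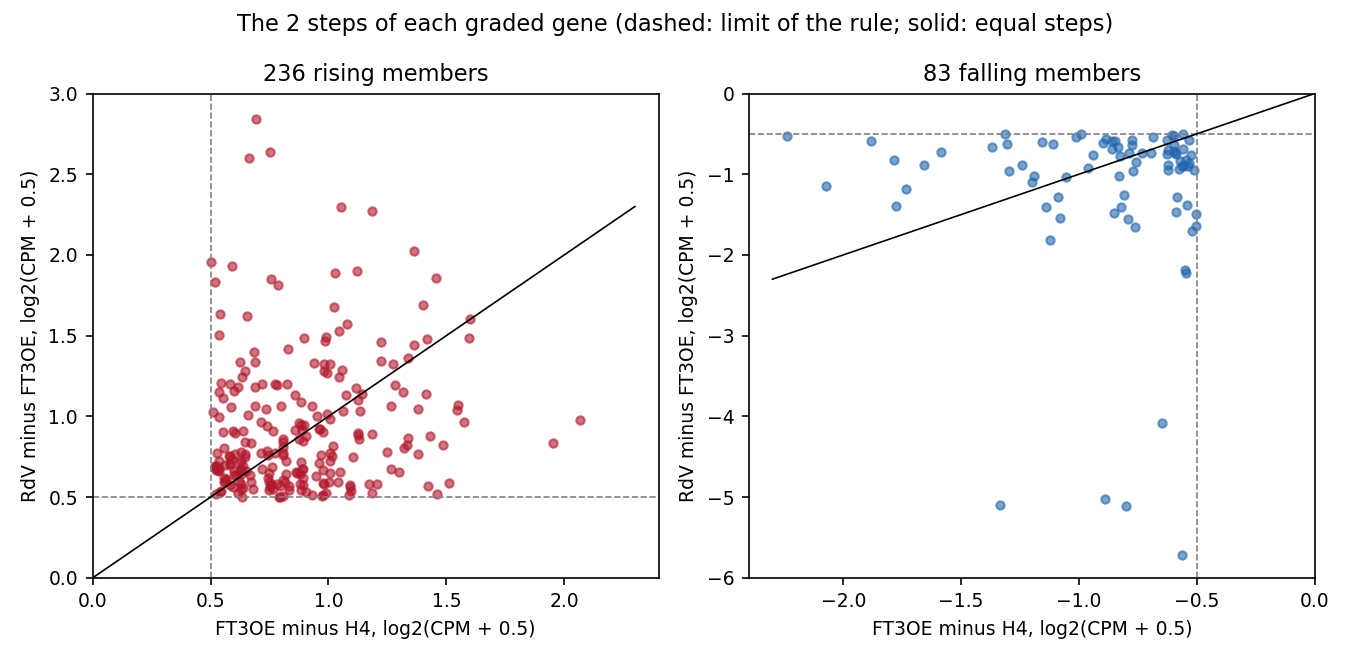
Each point is a graded gene, with FT3OE minus H4 on the x axis and RdV minus FT3OE on the y axis, both in log2(CPM + 0.5), for rising members on the left and falling members on the right. Dashed lines are the limit of 0.5 and the solid line marks equal steps. Points lie on both sides of that line, and 5 falling members have a second step beyond −3.

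The position of FT3OE on each gene's own axis was measured as the distance from the H4 mean divided by the distance of RdV from H4, so that 0 is H4 and 1 is RdV. Its median was 0.494 (25th to 75th percentile 0.432 to 0.571) over rising members and 0.471 (0.382 to 0.568) over falling members. In 197 of 319 members it lay between 0.4 and 0.6, and the rest lay to either side of that range. The rule itself bounds this position: with both steps at least 0.5, a member with a small range can only lie near the middle. The medians and the count near the middle therefore follow in part from the rule, and nothing is read from them. The second step was the larger in 170 members and the first in 149. These positions hold on the log2 scale. On the linear CPM scale the median was 0.352 over rising members and 0.618 over falling members, which puts FT3OE nearer to the lower genotype in both cases.

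Among rising members with a mean of at least 5 CPM, those with the widest range were FvH4_2g36420 and FvH4_1g26080. FvH4_2g36420 had 38.3, 45.9 and 46.4 CPM in RdV replicates 1, 2 and 3, 7.44, 6.24 and 13.4 CPM in FT3OE and 4.14, 1.77 and 5.53 CPM in H4. FvH4_1g26080 had 13.3, 14.2 and 12.2 CPM in RdV, 2.42, 2.497 and 3.90 CPM in FT3OE and 0.854, 0.736 and 0.848 CPM in H4. In both genes the gap between RdV and FT3OE was the wider one, with FT3OE at 0.342 and 0.402 of the way. The edgeR log2 change of FvH4_1g26080 was 2.18 ± 0.19 (SE) for RdV against FT3OE and 1.76 ± 0.23 for FT3OE against H4. For FvH4_2g36420 these were 2.27 ± 0.31 and 1.13 ± 0.35.

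Other rising members had 2 large steps of like size. FvH4_4g00800 had 234.7, 275.9 and 251.4 CPM in RdV, 76.4, 60.8 and 122.7 CPM in FT3OE and 23.1, 22.4 and 38.3 CPM in H4. Its steps were 1.61 for RdV minus FT3OE and 1.60 for FT3OE minus H4. FvH4_2g07340 averaged 104 ± 20.2 CPM in RdV, 37.9 ± 13.7 CPM in FT3OE and 12.5 ± 5.87 CPM in H4 (SD, n = 3 each), with steps of 1.49 and 1.59. In both genes replicate 3 was the highest library of FT3OE and of H4.

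FvH4_4g00800, at 0.499, was also near the midpoint, and so were FvH4_2g01330 and FvH4_2g26690. FvH4_2g01330 had 142.0, 148.4 and 143.7 CPM in RdV, 68.0, 47.7 and 86.2 CPM in FT3OE and 25.4, 23.9 and 41.6 CPM in H4, which put FT3OE at 0.50. FvH4_2g26690 averaged 19.9 ± 2.498 CPM in RdV, 7.83 ± 3.22 CPM in FT3OE and 2.81 ± 1.42 CPM in H4 (SD, n = 3 each), at 0.496. In FvH4_2g26690 the lowest FT3OE library, at 4.54 CPM, lay just above the highest H4 library, at 4.34 CPM. Over rising members of at least 5 CPM, the lowest position was that of FvH4_1g00420, with FT3OE at 0.221, and the highest that of FvH4_1g02152, with FT3OE at 0.737; over all rising members the lowest was 0.196. FvH4_1g00420 averaged 11.3 CPM in RdV, 2.81 CPM in FT3OE and 1.84 CPM in H4, and some of its counts were not whole. FvH4_1g02152 averaged 18.9 CPM in RdV, 12.99 CPM in FT3OE and 4.405 CPM in H4.

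Among falling members, 5 had a second step beyond −3 on the log2 scale, while the other 78 went no lower than −2.22. They are FvH4_4g24500, FvH4_3g43404, FvH4_4g24460, FvH4_6g46780 and FvH4_5g33560, of which FvH4_4g24460 and FvH4_6g46780 were chosen after their values were seen. FvH4_4g24500 had 3, 2 and 3 counts in RdV, 619, 780 and 843 counts in FT3OE and 1383, 1470 and 1326 counts in H4. Scaled for depth, its summed counts stood 530.6-fold lower in RdV than in H4 (95% exact binomial interval 269 to 1230). FT3OE averaged 19.9 CPM against 51.3 CPM in H4.

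FvH4_4g24460, the next identifier of at least 1 CPM beside FvH4_4g24500, had 0 counts in each RdV library, which allows up to 0.0356 CPM for 3 counts over the group. It had 446, 672 and 687 counts in FT3OE and 822, 809 and 815 in H4. For that floor FvH4_4g24460 was at least 439.5-fold lower in RdV than in FT3OE and at least 828.2-fold lower in RdV than in H4. FvH4_3g43404 had 2, 13 and 1 counts in RdV, 992, 1417 and 1530 counts in FT3OE and 1759, 1224 and 1287 counts in H4, so RdV replicate 2 held most of its RdV counts. FvH4_6g46780 had 31, 36 and 8 counts in RdV, 555, 1046 and 902 counts in FT3OE and 1049, 858 and 906 counts in H4. Intervals and floors cover counting error only. RdV is another ecotype than Hawaii-4, and whether RdV reads were assigned to these identifiers as well as Hawaii-4 reads was not tested. For FvH4_4g24500, FvH4_4g24460 and FvH4_3g43404 the place of FT3OE on the log2 scale depends on the pseudocount, since RdV is near 0. It depends less on it for FvH4_6g46780, which had more RdV counts.

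FvH4_5g33560 was the most abundant member by counts. It had 54.7, 145 and 10.6 CPM in RdV, 1684, 1437 and 1538 CPM in FT3OE and 2650, 2845 and 2616 CPM in H4. The RdV libraries spread widely: for FvH4_5g33560 RdV minus FT3OE was −5.12 with all libraries, −5.97 without RdV replicate 2 and −4.11 without RdV replicate 3. The edgeR log2 change of FvH4_5g33560 was −4.44 ± 0.68 (SE) for RdV against FT3OE and −0.89 ± 0.59 for FT3OE against H4. All 9 libraries were in one fit, so the RdV spread enters both errors. That every RdV library was below every FT3OE library, and every FT3OE library below every H4 library, is required by the rule of any falling member. Its neighbour FvH4_5g33580 was a rising member, with means on the log2 scale of 5.30 in RdV, 4.55 in FT3OE and 3.45 in H4.

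Of the 11 falling members with both steps of at least 2-fold, FvH4_2g40270 and FvH4_7g30540 are described here. FvH4_2g40270 had 17.7, 20.1 and 25.7 CPM in RdV, 46.0, 64.7 and 58.8 CPM in FT3OE and 199.8, 183.9 and 195.6 CPM in H4. Its edgeR log2 change was −1.41 ± 0.14 (SE) for RdV against FT3OE and −1.86 ± 0.14 for FT3OE against H4. FvH4_7g30540 had 1.08, 2.03 and 0.933 CPM in RdV, 2.53, 5.04 and 3.47 CPM in FT3OE and 24.6, 9.61 and 9.16 CPM in H4, where replicate 1 stood far above the other H4 libraries. Its mean in H4 was 14.4 ± 8.77 CPM (SD, n = 3). The edgeR log2 change of FvH4_7g30540 was −1.45 ± 0.47 (SE) for RdV against FT3OE and −2.05 ± 0.41 for FT3OE against H4.

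FvH4_3g05890 and FvH4_1g04810 lay near the midpoint. FvH4_3g05890 averaged 14.6 ± 1.71 CPM in RdV, 31.6 ± 0.514 CPM in FT3OE and 73.4 ± 6.77 CPM in H4 (SD, n = 3 each), with FT3OE at 0.522 and replicates close together in each genotype. FvH4_1g04810 averaged 7.76 ± 2.29 CPM in RdV, 15.9 ± 1.65 CPM in FT3OE and 36.9 ± 1.74 CPM in H4, at 0.539. The lowest position, 0.0895, was that of FvH4_3g43404, and the highest among falling members of at least 5 CPM, 0.686, that of FvH4_2g12830. FvH4_2g12830 had 46.6, 37.4 and 47.9 CPM in RdV, 69.6, 74.9 and 73.1 CPM in FT3OE and 221.9, 208.8 and 224.7 CPM in H4.

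**Figure D2:**
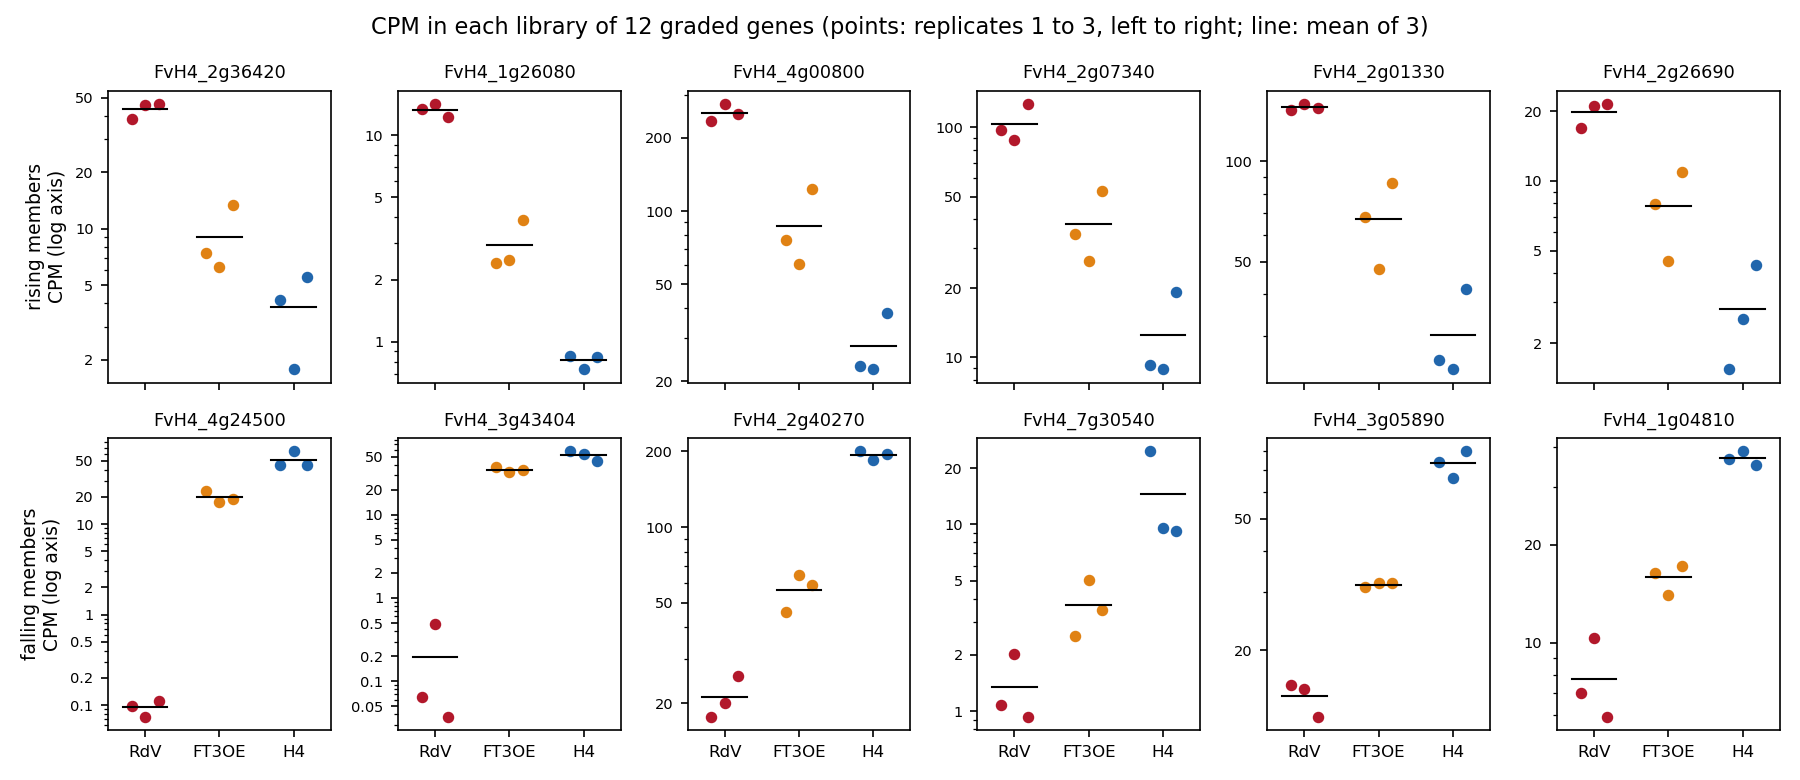
CPM on a log axis in each library of 12 graded genes, 6 rising (top row) and 6 falling (bottom row), for RdV, FT3OE and H4 from left to right. Points are replicates 1, 2 and 3 and the line is their mean. By the rule no genotype overlaps another in any panel. FvH4_4g24500 and FvH4_3g43404 fall below 0.5 CPM in RdV.

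On the TPM scale, which divides by effective gene length, 4 members led. FvH4_2g17830 had 1148, 1168 and 1029 TPM in RdV, 731, 665 and 610 TPM in FT3OE and 377, 440 and 285 TPM in H4. FvH4_2g17820, next to it in identifier order, had 719, 937 and 835 TPM in RdV, 588, 554 and 573 TPM in FT3OE and 332, 357 and 274 TPM in H4. Among falling members FvH4_4g36102 had 1010, 878 and 834 TPM in RdV, 1216, 1184 and 1167 TPM in FT3OE and 2239, 2406 and 2101 TPM in H4. FvH4_5g33560 had 45.3, 112 and 8.72 TPM in RdV, 1348, 1161 and 1218 TPM in FT3OE and 2059, 2209 and 2040 TPM in H4. The TPM of FvH4_4g36102 rests on a mean of only 5.76 CPM in RdV, 8.97 CPM in FT3OE and 20.99 CPM in H4 and a very small effective length, and that of FvH4_2g17830 on 34.1 CPM in RdV, 22.8 CPM in FT3OE and 13.7 CPM in H4.

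Genes lay close to the limit of 0.5 on both sides. Just inside it, FvH4_2g35410 had a smaller step of 0.50 (RdV minus FT3OE), with means of 12.5 CPM in RdV, 8.59 CPM in FT3OE and 5.36 CPM in H4. Just outside, FvH4_2g34230 had 10.1 CPM in RdV, 6.38 CPM in FT3OE and 4.31 CPM in H4 and a smaller step of 0.499 (FT3OE minus H4). Among falling genes FvH4_6g37740 was just inside, at −0.502 for FT3OE minus H4, and FvH4_3g23040 just outside, at −0.498 for RdV minus FT3OE.

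The libraries of FT3OE did not stand at one place on the axis. Over rising members the median position was 0.496, 0.423 and 0.574 in FT3OE replicates 1, 2 and 3, and over falling members 0.467, 0.448 and 0.502. With TMM scaling the medians were 0.476, 0.382 and 0.547 over rising members and 0.498, 0.487 and 0.528 over falling members. The libraries of RdV had medians of 0.967 to 1.03 and those of H4 medians of −0.0259 to 0.0330.

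The order of libraries within a genotype, which the rule did not use, was uneven among rising members. FT3OE replicate 3 was the highest FT3OE library in 147 of 236 rising members (62.3%) and in 26.9% of all genes of at least 1 CPM. FT3OE replicate 2 was the lowest in 147 rising members (62.3%) and in 31.0% of all genes. In falling members FT3OE replicate 3 was the highest in 11 of 83 (13.3%) and replicate 2 in 39 (47.0%), where replicate 2 was the highest in 41.9% of all genes. The median fold of FT3OE replicate 3 over replicate 2 was 1.21 in rising members, 0.963 in falling members and 0.986 over all genes. It was at least 1.5 in 39 rising members (16.5%) and in 1.78% of all genes. H4 replicate 3 was the highest H4 library in 96 rising members (40.7%), against 32.9% of all genes. Members are not independent of one another, so these shares carry no test. FT3OE replicates 2 and 3 were the deepest libraries, with totals of 44045169 and 44916872 counts, and they differ little in depth.

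**Figure D3:**
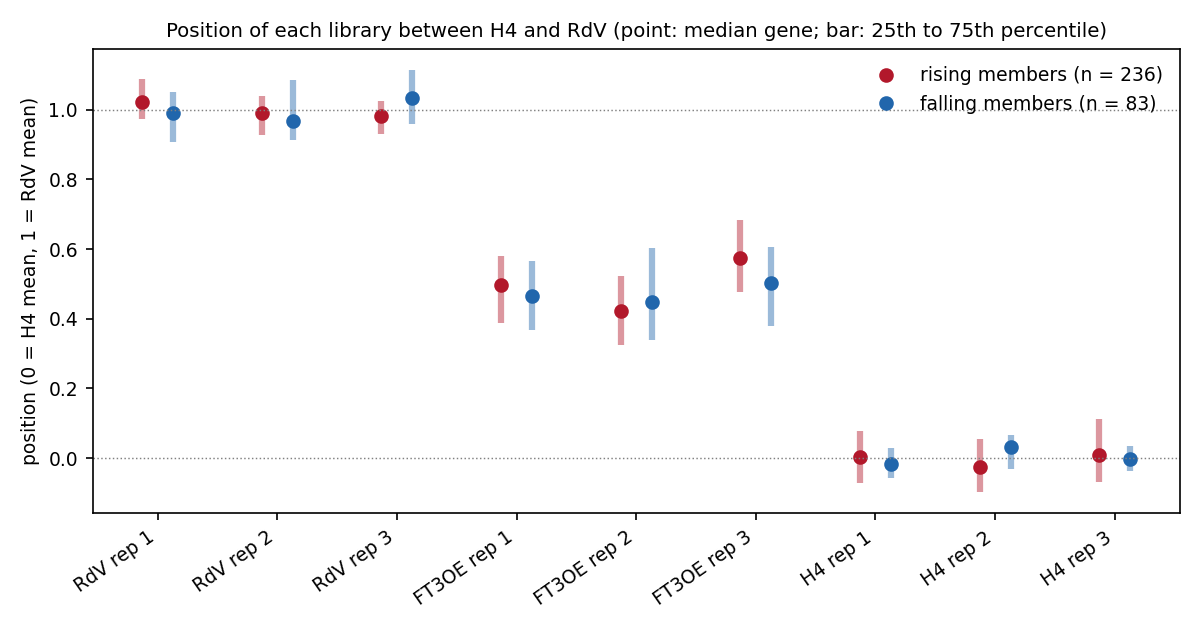
Position of each library between the H4 mean (0) and the RdV mean (1), for rising and falling members. Points are the median over members and bars run from the 25th to the 75th percentile. FT3OE replicate 3 is by median the FT3OE library nearest RdV for both kinds of member, at 0.574 and 0.502.

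**Figure D4:**
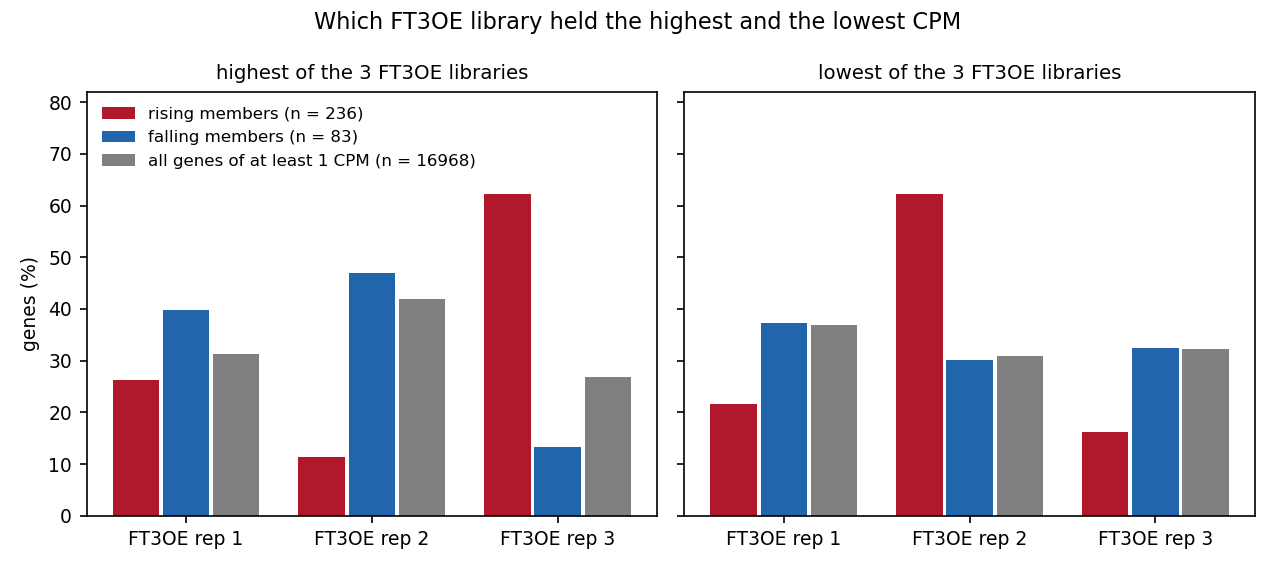
Share of genes, in percent, for which each FT3OE library had the highest CPM of the 3 (left) or the lowest (right), for rising members, falling members and all genes of at least 1 CPM. FT3OE replicate 3 is the highest in 62.3% of rising members and in 26.9% of all genes.

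The typical spread between replicates was wider in members. The median SD of log2(CPM + 0.5) over the 319 members was 0.154 in RdV, 0.171 in FT3OE and 0.188 in H4, against 0.127, 0.0814 and 0.0912 over all genes of at least 1 CPM. Members were also lower in level, with a median of 9.94 CPM and 10.5 TPM, against 25.4 CPM and 21.5 TPM over all such genes; the part of level in the spread was not tested. The gap between the nearest libraries of neighbouring genotypes had a median of 0.48 for RdV and FT3OE and 0.42 for FT3OE and H4. In 289 members every library had at least 10 counts. In 44 rising members the H4 mean was under 1 CPM, and in 18 falling members the RdV mean was.

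Together the rising members took 1.00 ± 0.0180% of the counts in RdV, 0.517 ± 0.0630% in FT3OE and 0.273 ± 0.00543% in H4 (SD, n = 3 each). The falling members took 0.0903 ± 0.00787% in RdV, 0.320 ± 0.0101% in FT3OE and 0.576 ± 0.0153% in H4. Without FvH4_5g33560 the falling members took 0.0833% in RdV, 0.164% in FT3OE and 0.305% in H4.

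Falling members were shorter, by median, than rising members. Effective length, taken from the ratio of counts to TPM and set to 1 at the median gene, had a median of 0.981 in rising members and 0.755 in falling members. Of the falling members 31 of 83 (37.3%) were among the shortest 25% of genes of at least 1 CPM and 5 (6.02%) among the longest 25%. Of the rising members 53 of 236 (22.5%) were among the shortest 25% and 48 (20.3%) among the longest 25%. Counts that were not whole, which arise when reads are shared between similar copies, occurred in 25 members (7.84%) and in 5.37% of all genes of at least 1 CPM; such members are uncertain.

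Members were spread over the genome. The digit before the g of an identifier was taken as its linkage group, and the digits that follow as its place along it, which is how FvH4 models are commonly numbered. Members made up 1.68% of the genes of at least 1 CPM on linkage group 5, the lowest share, and 2.02% on group 1, the highest. Linkage group 6 held the most, with 43 rising and 15 falling members. On group 1 the split was 24 rising and 15 falling, and on group 2 it was 42 and 8.

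Neighbouring members were few. In identifier order among genes of at least 1 CPM, 20 members formed 10 adjacent pairs, with no longer run, and 9 pairs went in one direction. The 454 other genes beside rising members had a median RdV minus H4 of 0.12, and the 161 beside falling members a median of −0.03, against 0.06 over all genes of at least 1 CPM. Besides FvH4_2g17820 and FvH4_2g17830, the pairs chosen after their values were seen were FvH4_2g26690 with FvH4_2g26691 and FvH4_5g11530 with FvH4_5g11540. FvH4_2g26691 had 248.0, 270.8 and 311.8 CPM in RdV, 119.7, 92.0 and 173.3 CPM in FT3OE and 42.6, 37.0 and 76.8 CPM in H4, and its lowest and highest FT3OE replicates were those of FvH4_2g26690. FvH4_5g11530 had steps of 1.69 for RdV minus FT3OE and 1.40 for FT3OE minus H4, and FvH4_5g11540 steps of 0.56 and 1.09. Adjacent models can overlap and share reads, so each pair is uncertain as 2 separate genes.

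**Figure D5:**
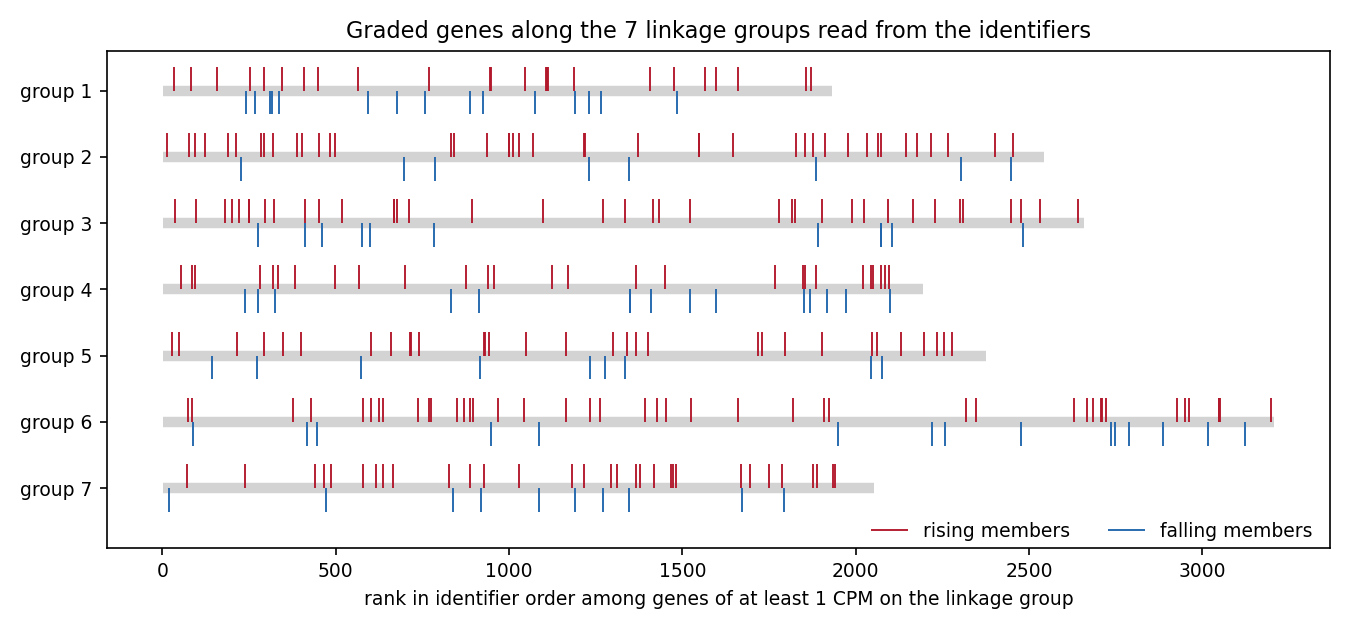
Rank of each graded gene in identifier order among genes of at least 1 CPM on the 7 linkage groups, with rising members drawn above the grey line and falling members below it. Members lie along the whole length of every group, and group 6 holds the most, 43 rising and 15 falling.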

How the data were processed

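The authors deposited expected counts per gene (estimates, not normalized, 97.5% of them whole numbers) and TPM, scaled to a fixed sum after division by effective gene length, as the deposited values show. Libraries were stranded mRNA, read as 150 bp pairs, per the labels' protocols. STAR, RSEM and edgeR appear in the submitters' processing notes without versions; the build, annotation and strand setting were not given in the sources used here. Library totals ran from 23110933 to 44916872 counts, a ratio of 1.94, so 3 counts are 0.130 CPM in the shallowest library and 0.0668 CPM in the deepest.

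CPM used library totals, as the rule states. edgeR 4.0.16 in R 4.3.3 (filterByExpr, TMM, quasi-likelihood test, counts rounded first, all 9 libraries in one fit) was tested on simulated data. DESeq2 1.42.0 was an alternative. Named genes follow a rule on range, step size, position, TPM, threshold and adjacency, taking the leading 1 or 2 rising and falling members with a mean of at least 5 CPM (no such minimum just inside and outside the step limit) and, for step size and midpoint, passing over genes already named; genes chosen after their values were seen are marked. Planned gene lists and markers could not be applied without gene names. The members, lists and rule were chosen with earlier results of these data known.

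FvH4_3g09870, the identifier with the largest change in FT3OE against H4, had 1, 0 and 0 counts in RdV, 7584, 11460 and 13889 in FT3OE and 3, 1 and 0 in H4. It was planned as a check of labels. Since FvH4_3g09870 was picked for this change and has no name here, its counts cannot show that these libraries overexpress FT3.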

Additional observations from a re-analysis of the deposited data

How the results depend on the processing

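The rule was repeated under 11 other settings and without each library in turn. Requiring steps of at least 1 left 45 members (34 rising and 11 falling), with the median FT3OE position of falling members at 0.506. Outside these settings, TMM scaling and steps of at least 1 together left 35 members, 23 rising and 12 falling, so the share of rising members was lower. A minimum mean of 5 CPM left 156 rising members of 215 in all. The other settings stayed within 1.5 times the number of members: TMM scaling gave 209 rising and 92 falling, with 277 of the 319 kept, and the deposited TPM gave 262 and 83, with 287 kept. Scaling moved the median gene: FT3OE minus H4 was 0.10 with library totals, 0.01 with TMM and 0.14 with TPM. Leaving out 1 library gave 320 to 370 members, though the criterion on overlap is easier to meet with fewer libraries. Of the 319 members, 275 were kept without FT3OE replicate 3, the fewest, and 307 without RdV replicate 3, the most. The median position of rising members was 0.487 to 0.505. Members called by edgeR without 1 library were 226 to 292 for FT3OE against H4, 239 to 295 for RdV against FT3OE and 319 throughout for RdV against H4. With the replicate number as a block, 289, 279 and 319 members were called for RdV against FT3OE, FT3OE against H4 and RdV against H4. The labels do not pair libraries, and deviations from genotype means of libraries with the same number correlated across genes at −0.290 to 0.329, with not every library closest to its own number. Members under 10 counts in a library, 30 of 319, are limited most by depth.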

Other observations

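FvH4_3g09870, which had the largest change in FT3OE against H4 and is not a member, had 286.3, 260.2 and 309.2 CPM in FT3OE replicates 1, 2 and 3. The median positions of rising members in the same libraries were 0.496, 0.423 and 0.574, so the library lowest in the one was lowest in the other and likewise for the highest. With 3 libraries this is a pair of orders, no test was made and nothing is read from the match.

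FT3OE replicate 3 and H4 replicate 3 were both the highest library of their genotype in 8.81% of genes of at least 1 CPM. They were so in 72 of 236 rising members (30.5%) and in 3 of 83 falling members. Taken singly, FT3OE replicate 3 was the highest in 26.9% of all such genes, 62.3% of rising members and 13.3% of falling members. For H4 replicate 3 these shares were 32.9%, 40.7% and 30.1%. The larger joint share in rising members follows at least in part from these single shares. A link between the libraries in rising members was not tested. Across genes, deviations of FT3OE replicate 3 and H4 replicate 3 from their genotype means correlated at 0.0735. Among the rising members named for their range, steps or midpoint, FvH4_2g36420, FvH4_4g00800, FvH4_2g07340, FvH4_2g01330 and FvH4_2g26690 had replicate 3 highest in both genotypes. FvH4_1g26080 did not, with replicate 1 the highest in H4.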
